A study of Mus musculus with 24 samples.

Results

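The genes of cholesterol and fatty acid synthesis and of their control were examined in the hippocampus of mice that drank corticosterone during a single night. The 40 listed genes were found by matching the transcript accession of each microarray probe to the gene, and the brightest probe of a gene was used. In all, 39 of the 40 genes had a probe, with 66 probes among the 56605 on the array, and *Acat2* had none that matched by accession. The genes were sorted by role into mevalonate steps (7 measured genes), steps from squalene to cholesterol (12), SREBP control (5), sterol transport and LXR (6), and fatty acid synthesis and desaturation (9).

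The animals were 48 male Swiss-Webster mice, described by the study as aged 12 weeks. By the study's methods they were moved to single cages at about that age and kept so for some weeks before treatment. They were therefore older when killed. Brothers were spread over the control and treated groups. The corticosterone-treated mice received 100 µg/ml corticosterone in drinking water with 0.45% hydroxypropyl-β-cyclodextrin from the end of one light phase over the 12 h of darkness. Control mice received water with 0.45% of the same cyclodextrin, a vehicle that therefore was shared by all groups. Both kinds of mice were killed during the first, the fifth or the ninth hour of the light phase, the resting period of mice, with 8 control and 8 corticosterone-treated animals for each hour. Each of the 24 two-color arrays carried RNA of 1 control mouse in the Cy3 channel and of 1 corticosterone-treated mouse in the Cy5 channel, and no array had the dyes exchanged. A constant difference between the dyes is therefore part of each comparison of treated with control mice and cannot be told apart from an effect of corticosterone there, but it cancels when hours are compared within a channel or when the effect is compared between hours.

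Cholesterol does not cross the blood-brain barrier in useful amounts, so the brain makes its own, in astrocytes, neurons and above all in the oligodendrocytes that wrap axons in myelin. Acetyl units are joined to mevalonate, mevalonate is turned into isoprene units and farnesyl diphosphate, and these are joined to squalene, which is closed to a ring and trimmed to cholesterol. The transcription factors SREBP1 and SREBP2, products of *Srebf1* and *Srebf2*, switch on the genes of this chain when the sterol content of the endoplasmic reticulum is low, whereas INSIG proteins hold them back together with their escort SCAP when sterols are abundant. The liver X receptors (LXR), products of *Nr1h2* and *Nr1h3*, respond to oxidised sterols and turn on genes of sterol export.

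Promoter sequences are shown for the members whose signal was lower at all 3 hours and that had an entry in the RefSeq promoter table. They are also shown for *Insig2*, higher at all 3 hours, and for *Mylip*, called for a change of its response between the ninth and first hour. Both were kept although the first hour call of *Insig2* was lost in 2 of 16 alternatives and the *Mylip* call in 6. *Pmvk* was left out because its ninth hour call was lost in most alternatives (11 of 16), and 1 of its 2 windows held a CCAAT box. Each run is the 250 bases before the annotated transcript start in the build GRCm38.p6, 5′ to 3′ on the strand of the gene. For *Insig2*, which has several annotated starts, the window with matches is shown. Capitals mark a sterol regulatory element of the form TCACNCCAC, the binding site form of SREBP, or a CCAAT box, the site of the factor NF-Y that binds beside SREBP, on either strand (a CCAAT box on the opposite strand reads ATTGG). The 2 motifs did not overlap in these windows. The windows were *Hmgcs1* (chr13:119690101-119690350, plus strand), *Idi1* (chr13:8885356-8885605, plus strand), *Msmo1* (chr8:64733579-64733828, minus strand), *Insig2* (chr1:121332590-121332839, minus strand) and *Mylip* (chr13:45389492-45389741, plus strand).
Hmgcs1: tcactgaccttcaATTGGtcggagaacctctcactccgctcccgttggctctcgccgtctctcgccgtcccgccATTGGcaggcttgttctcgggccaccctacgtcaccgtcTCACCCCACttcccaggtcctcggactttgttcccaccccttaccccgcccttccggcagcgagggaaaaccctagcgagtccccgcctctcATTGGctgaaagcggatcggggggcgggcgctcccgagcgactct
Idi1: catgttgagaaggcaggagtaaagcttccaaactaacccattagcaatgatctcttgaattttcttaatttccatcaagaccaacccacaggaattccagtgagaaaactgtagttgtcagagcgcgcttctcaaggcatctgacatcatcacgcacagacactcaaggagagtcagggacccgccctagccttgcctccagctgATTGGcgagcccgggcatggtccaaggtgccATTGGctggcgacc
Msmo1: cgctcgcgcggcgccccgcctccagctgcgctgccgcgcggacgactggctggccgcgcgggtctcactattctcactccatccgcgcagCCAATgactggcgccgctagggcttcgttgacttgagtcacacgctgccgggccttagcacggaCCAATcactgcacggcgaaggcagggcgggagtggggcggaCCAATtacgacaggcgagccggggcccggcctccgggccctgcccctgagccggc
Insig2: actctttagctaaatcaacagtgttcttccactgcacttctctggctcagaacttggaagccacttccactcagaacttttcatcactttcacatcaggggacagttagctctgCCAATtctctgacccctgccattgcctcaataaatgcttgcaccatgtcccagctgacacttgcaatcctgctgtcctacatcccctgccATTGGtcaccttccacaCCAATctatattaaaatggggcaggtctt
Mylip: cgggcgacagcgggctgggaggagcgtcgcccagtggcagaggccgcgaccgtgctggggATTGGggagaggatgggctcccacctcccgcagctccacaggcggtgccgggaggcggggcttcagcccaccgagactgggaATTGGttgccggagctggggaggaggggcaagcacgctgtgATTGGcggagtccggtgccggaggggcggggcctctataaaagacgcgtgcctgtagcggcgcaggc

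The table held 40 promoter windows of 31 measured members. TCACNCCAC was present in 1 of these, that of *Hmgcs1*, where it read TCACCCCAC and began 137 bases before the start, and in 1.05% of all 32851 windows of this length. CCAAT was present in 24 of the 40 windows (60%), against 33.8% of all windows. The *Hmgcs1*, *Msmo1* and *Mylip* windows and the shown *Insig2* window held it at 3 places each, and the *Idi1* window at 2. GGGCGG, a GC box of the factor Sp1, was present in 26 of the 40 windows (65%), against 32.7% of all. CACGTG, an E-box, was present in 7 (17.5%), those of *Abca1*, *Dhcr7*, *Elovl5*, *Hsd17b7*, *Insig1*, *Sc5d* and *Scap*, against 6.02% of all. For the palindromic glucocorticoid response element and the LXR response element, a direct repeat with a gap, only 1 strict form each was searched. These strict forms were found in none of the 40, and in only 3 and 5 of all 32851 windows (0.00913% and 0.0152%). Forms this rare would hardly be met in 40 windows, so this search cannot tell whether members carry either element. Looser forms of the 2 elements were not searched. The motif matches given here describe the letters within 250 bases only.

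Each array had between 57.9 and 64.2% of its Cy3 signals well above background, and between 61 and 70.4% of its Cy5 signals. The brightest probes of all 39 members were well above background in both channels of all 24 arrays, with mean intensities between 150.3 (*Insig1*) and 41332 (*Scd2*). One array, replicate 7 of the fifth hour, stood apart from its group over all probes: the median distance of its log2 intensities from the median of the other arrays of that hour was 0.123 in the Cy3 and 0.129 in the Cy5 channel, and the corticosterone channel of replicate 8 of the first hour followed with 0.107, whereas the remaining arrays lay between 0.0649 and 0.0987. The fits were repeated without each of these arrays, and where a call was lost this is given beside the result. Intensities below are normalized, without offset, and are comparable between samples for 1 probe but not between probes.

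Corticosterone-treated mice displayed lower signals of a set of sterol synthesis genes at each of the 3 hours. At the first hour 12 of the 39 members differed from control mice at an adjusted *p* under 0.05 (3 higher, 9 lower), when 17.5% of all probes did so. At the fifth hour 12 members differed (2 higher, 10 lower), against 18.1% of all probes, and at the ninth hour 11 (3 higher, 8 lower), against 14.0%. These are 30.8, 30.8 and 28.2% of the members. Lower signals were found for 8.67, 9.47 and 6.97% of all probes at the 3 hours, and higher signals for 8.85, 8.62 and 7.01%. Among probes with a mean intensity of 50 or more, 20.1, 20.1 and 14.0% differed. The members with a difference at 1 or more hours numbered 16 (41%), against 29.8% of all probes and 30.6% of the brighter ones, and 23 members were called at none.

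A difference of the same sign at all 3 hours was found for 8 members. *Hmgcs1*, *Idi1*, *Fdps*, *Sqle*, *Msmo1* and *Abcg1* were lower at each hour, a pattern shown by 2.94% of all probes and by 3.68% of the 32033 probes with a mean intensity of 50 or more. *Pmvk* and *Insig2* were higher at each hour, as were 2.97% of all probes, but the ninth hour call of *Pmvk* was close to the threshold (adjusted *p* = 0.0457) and was lost in 11 of 16 alternatives. The median log2 ratio of the members was -0.03 at the first, -0.09 at the fifth and -0.08 at the ninth hour, when the median of all probes was -0.00092, 0.00095 and 0.00063. Without replicate 8 of the first hour or without slide 1 the first hour median was -0.02, and with the deposited log2 ratios it was -0.01. The median of the fifth hour was -0.06 without slide 1 or slide 3 and with the deposited ratios, and that of the ninth hour was -0.04 without slide 1. The differences were small: the largest was -0.41, on a log2 scale, and standard errors ranged from 0.037 to 0.113. In bulk tissue, fewer cells of a type and less RNA per cell cannot be told apart.

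**Figure D1:**
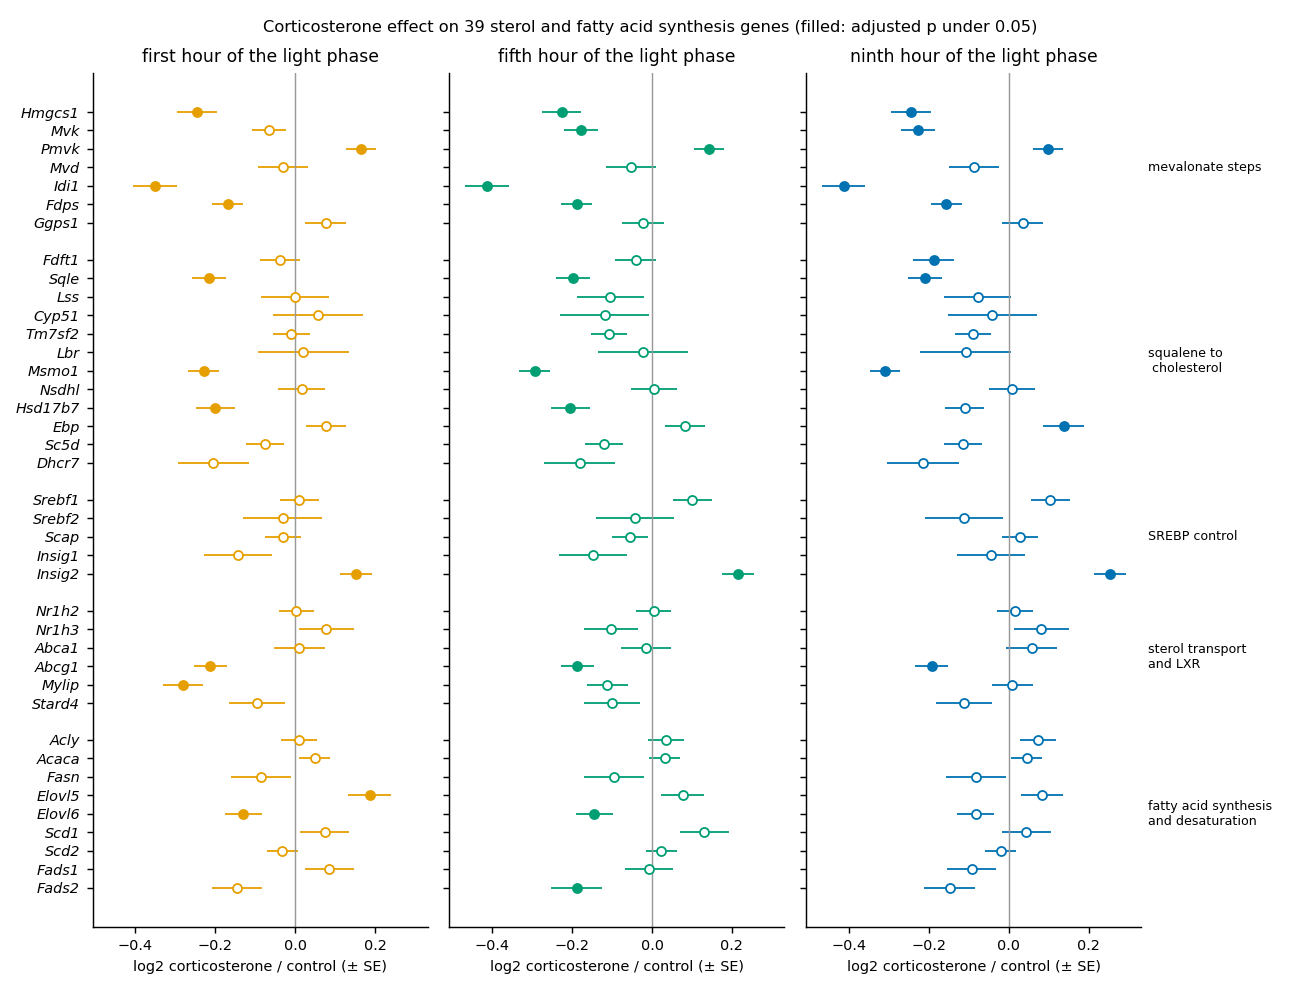
The log2 ratio of corticosterone-treated to control mice (x axis, with bars of 1 SE) is plotted for the 39 measured members, grouped by role, at each of the 3 hours. Filled points have an adjusted p under 0.05, and the filled points of *Idi1* lie at -0.35, -0.41 and -0.41.

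Among the mevalonate steps, 4, 5 and 5 of the 7 measured genes were called at the first, the fifth and ninth hour, with 3, 4 and 4 of them lower. Of all probes, 17.5, 18.1 and 14.0% were called at these hours. *Idi1*, the isomerase that turns isopentenyl into dimethylallyl diphosphate, displayed the largest difference of all members. Its intensity in control mice was 3153 to 3885 (median 3396) at the first, 2849 to 3724 (median 3257) at the fifth and 2977 to 3443 (median 3177) at the ninth hour. In corticosterone-treated mice it was 2456 to 3123 (median 2677), 2249 to 2676 (median 2455) and 2079 to 2704 (median 2425). The ranges of the groups did not overlap at any hour, and the treated mouse had the lower value on all 24 arrays. The log2 ratio was -0.35 ± 0.055 (SE, adjusted *p* = 2.44e-06) at the first hour, -0.41 ± 0.055 (adjusted *p* = 9.71e-08) at the fifth hour and -0.41 ± 0.055 (adjusted *p* = 2.59e-07) at the ninth hour, so that the signal fell by 21.6, 24.9 and 24.9%.

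*Hmgcs1*, the synthase that makes HMG-CoA at the head of the chain and the member with the sterol regulatory element shown above, was lower at each hour as well. Control mice had intensities of 19212 to 22607 (median 21139), 18115 to 25499.8 (median 21749.8) and 19876 to 26313 (median 23272) at the 3 hours. Treated mice had 17164 to 18367 (median 17418), 16333 to 19828 (median 18442) and 18784 to 21090.4 (median 19616). The groups were apart at the first hour and overlapped at the other 2, and 22 of the 24 arrays showed the lower value in the treated mouse. On the log2 scale the ratios were -0.25 ± 0.050, -0.23 ± 0.050 and -0.24 ± 0.050 (adjusted *p* = 0.000161, 0.000467 and 0.000275). At the fifth hour the call rested on slide 3: without its 3 arrays of that hour, the ratio was -0.13 with an adjusted *p* of 0.184.

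*Fdps* makes farnesyl diphosphate, from which sterols, dolichol and prenyl anchors are built. Its intensity ranged from 6745 to 7562 (median 7147) in controls and from 5725 to 6679 (median 6407) in treated mice of the first hour, without overlap. The ranges were 6531 to 7961 (median 7358) and 5937 to 7057 (median 6491) at the fifth and 6816 to 7977 (median 7203) and 6268 to 6873 (median 6610.2) at the ninth hour, with overlap at both. The log2 ratios were -0.17 ± 0.038, -0.19 ± 0.038 and -0.16 ± 0.038 (adjusted *p* = 0.000459, 0.000112 and 0.00159), and without slide 1, where 4 of the ninth hour's 8 arrays lay, its ratio at the ninth hour was -0.11 with an adjusted *p* of 0.267.

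*Mvk* and *Pmvk* add the first and the second phosphate to mevalonate in turn, and their ratios had opposite signs. *Mvk* ranged over 2397 to 2777 (median 2583) in controls and 2224 to 2797 (median 2471) in treated mice at the first hour, where the ratio of -0.07 ± 0.043 did not pass the test (adjusted *p* = 0.264). At the fifth hour the groups of 2343 to 2959 (median 2731) and 2117 to 2626 (median 2359) overlapped. At the ninth hour they were apart, at 2648 to 3127 (median 2795) and 2157 to 2631 (median 2431). The log2 ratios of the fifth and ninth hour were -0.18 ± 0.043 and -0.23 ± 0.043 (adjusted *p* = 0.00125 and 8.88e-05), but the difference between the effects at the ninth and first hour, -0.16 ± 0.061, did not pass the test (adjusted *p* = 0.295).

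*Pmvk* was higher in treated mice, with 4656 to 5507 (median 5200.1) in controls against 5247 to 6204 (median 5668) at the first hour, 4738 to 5459 (median 5185) against 5156 to 6292 (median 5598) at the fifth and 4582 to 5204 (median 4960.2) against 4918 to 5511 (median 5267) at the ninth. The groups overlapped at each hour, and the treated mouse had the higher value on 22 of 24 arrays. This gave log2 ratios of 0.17 ± 0.037, 0.14 ± 0.037 and 0.10 ± 0.037 (adjusted *p* = 0.000419, 0.00215 and 0.0457). The ninth hour call was lost in 11 of 16 alternatives, among them those without slide 1, 2 or 3 (adjusted *p* = 0.494, 0.182 and 0.0519), and its adjusted *p* ranged from 0.0454 to 0.564 over the alternatives. The remaining genes of this role, *Mvd*, which decarboxylates mevalonate diphosphate, and *Ggps1*, which makes geranylgeranyl diphosphate for protein prenylation, had log2 ratios between -0.09 and 0.08 and were called at no hour.

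From squalene to cholesterol, 3, 3 and 4 of the 12 genes were called at the 3 hours, against 17.5, 18.1 and 14.0% of all probes. Of the called genes, 3 were lower each time. *Msmo1*, the methyl sterol oxidase that acts on the ring after the demethylase *Cyp51*, had 11145 to 12019 (median 11738), 10335 to 13194 (median 11290.2) and 10727 to 12886 (median 11729) in controls. Treated mice had 9232 to 10871 (median 9869), 8948 to 9737 (median 9296) and 8397 to 9896 (median 9567). The groups were apart at all 3 hours, and the value of the treated mouse was the lower one on all 24 arrays. Its ratios on the log2 scale were -0.23 ± 0.038, -0.29 ± 0.038 and -0.31 ± 0.038, with adjusted *p* values of 4.23e-06, 2.74e-08 and 2.01e-08.

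*Sqle* makes the epoxide of squalene, a slow step of the chain. Controls had 3775 to 4382 (median 4119), 3645 to 4531 (median 4016) and 3711 to 4521 (median 4156). Treated mice had 3382 to 3628 (median 3536), 3234 to 3922 (median 3504) and 3313 to 3966 (median 3549), with groups apart at the first hour only. The log2 ratios were -0.22 ± 0.042, -0.20 ± 0.042 and -0.21 ± 0.042 (adjusted *p* = 7.62e-05, 0.000239 and 0.000176). Without slide 3 the adjusted *p* of the fifth hour was 0.111, and without slide 1 that of the ninth hour was 0.0951.

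*Hsd17b7*, the ketoreductase of the demethylating complex, fell by 12.9% at the first and by 13.2% at the fifth hour (log2 -0.20 ± 0.048 and -0.20 ± 0.048, adjusted *p* = 0.00124 and 0.001). Its ranges were 1931 to 2378 (median 2153) against 1758 to 2092 (median 1844) and 1907 to 2622 (median 2068) against 1653 to 2066 (median 1852), with overlap at both hours. At the ninth hour the ratio was -0.11 ± 0.048 and was not called (adjusted *p* = 0.0908), and the fifth hour call was lost without slide 3 (adjusted *p* = 0.076). *Fdft1*, squalene synthase, differed at the ninth hour only, with 5126 to 6785 (median 6117) in controls and 4786 to 5981 (median 5205) in treated mice (-0.19 ± 0.051, adjusted *p* = 0.00477), and its call was lost without slide 1 (adjusted *p* = 0.321). Between the ninth and first hour its effect differed by -0.15 ± 0.071, which did not pass the test (adjusted *p* = 0.577). *Ebp*, the sterol isomerase, had 2651 to 2959 (median 2759.6) in controls and 2834 to 3258 (median 3034) in treated mice at the ninth hour (0.14 ± 0.051, adjusted *p* = 0.0449), a call that did not hold in 7 of 16 alternatives.

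The remaining genes of the ring steps were called at no hour. They were *Lss* (lanosterol synthase), *Cyp51* (the first demethylase), *Tm7sf2* and *Lbr* (sterol reductases of the same step), *Nsdhl*, *Sc5d* (a desaturase) and *Dhcr7*, the last reductase before cholesterol. *Dhcr7* came with the lowest ratios among them, at -0.20 ± 0.090, -0.18 ± 0.090 and -0.21 ± 0.090 (adjusted *p* = 0.0896, 0.135 and 0.0841), on 7 of 8 arrays of each hour. *Sc5d* followed with -0.07, -0.12 and -0.12, where the adjusted *p* of the fifth hour was 0.0531. It was called at all 3 hours without replicate 8 of the first hour, and at the fifth hour also with the processed signals, with probes of an intensity of 50 or more and without slide 2. *Cyp51* and *Lbr* varied most between animals (SE 0.112 and 0.113), and the array that stood apart held their lowest values in both channels of the fifth hour.

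**Figure D2:**
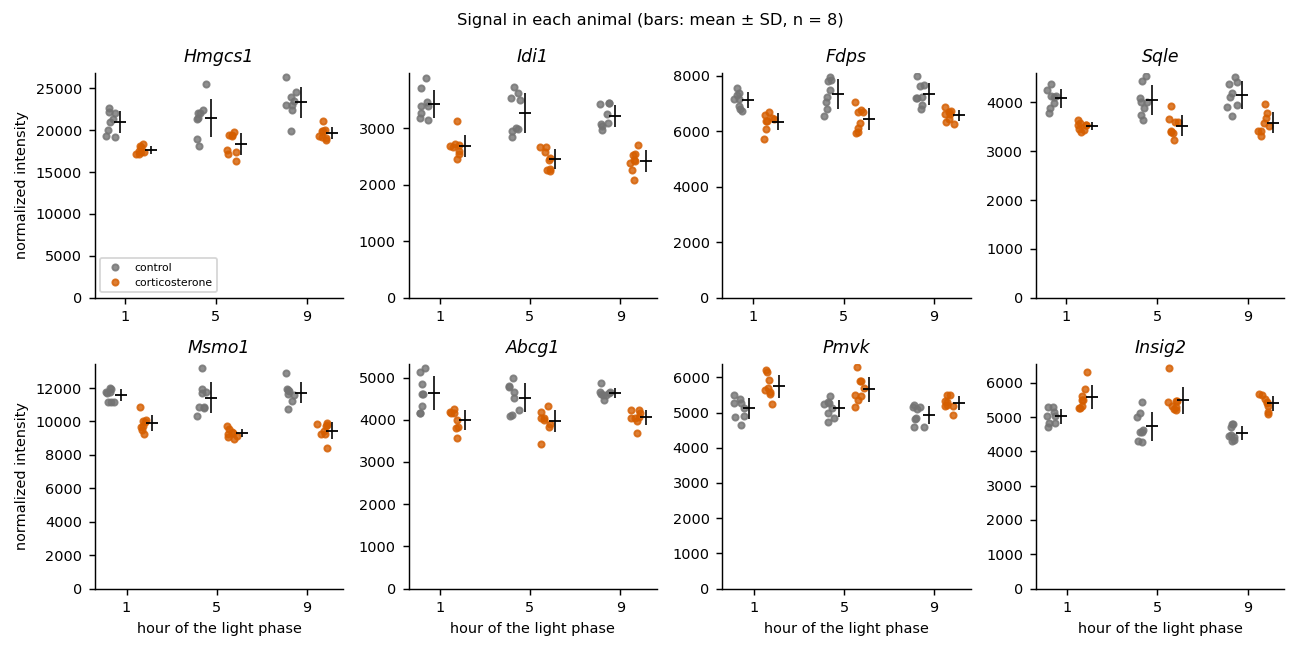
Normalized intensity (y axis, from 0) of the 8 members with the same call at all 3 hours is plotted for each of the 8 control and 8 corticosterone-treated animals of an hour, with bars of the mean ± SD. The groups of *Idi1* and *Msmo1* do not overlap at any of the 3 hours, whereas those of *Pmvk* overlap at each.

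Of the 5 genes of SREBP control, 1 was called at each hour, against 17.5, 18.1 and 14.0% of all probes. *Insig2*, which encodes the INSIG protein of the endoplasmic reticulum that is less dependent on SREBP than INSIG1, was higher in treated mice. Controls had 4710.3 to 5307 (median 5035), 4264 to 5447 (median 4596) and 4309 to 4802 (median 4458). Treated mice had 5268 to 6328 (median 5503), 5196 to 6439 (median 5387) and 5101 to 5683 (median 5424). The groups overlapped at the first and the fifth hour and were apart at the ninth, and the treated mouse had the higher value on 23 of 24 arrays. The log2 ratios were 0.15 ± 0.040, 0.22 ± 0.040 and 0.25 ± 0.040 (adjusted *p* = 0.0028, 3.67e-05 and 4.56e-06), that is a signal higher by 11.1, 16.1 and 19.2%. At the first hour the call was lost without slide 3 (log2 ratio 0.10, adjusted *p* = 0.0912). The highest treated value of the fifth hour came from the array that stood apart.

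The other genes of SREBP control gave no call. *Insig1*, which SREBP itself induces, was dim, with 135 to 169.5 (median 151), 127 to 179 (median 152) and 121 to 214 (median 168) in controls and 111 to 148 (median 139.8), 113 to 202 (median 132) and 136 to 194 (median 160.4) in treated mice. Its log2 ratios of -0.14 ± 0.085, -0.15 ± 0.085 and -0.04 ± 0.085 had adjusted *p* values of 0.25, 0.237 and 0.757, and the groups overlapped at each hour. Without slide 1 its ratio of the fifth hour was -0.26 and passed the test (adjusted *p* = 0.0305).

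*Srebf1* had 3264 to 4013 (median 3876), 3437 to 4183 (median 3651) and 3407 to 4202 (median 3947) in controls and 3508 to 4073 (median 3809), 3207 to 4489.9 (median 4093) and 3788 to 4701 (median 4224) in treated mice. The log2 ratios were 0.01 ± 0.049, 0.10 ± 0.049 and 0.10 ± 0.049 (adjusted *p* = 0.907, 0.118 and 0.12). *Srebf2* was dimmer, with 284 to 415 (median 344), 239 to 460.2 (median 362) and 280.0 to 483 (median 394) in controls, 261 to 404 (median 341), 292 to 384 (median 357) and 289 to 463 (median 354) in treated mice, and ratios of -0.03 ± 0.098, -0.04 ± 0.098 and -0.11 ± 0.098. *Scap* had ratios between -0.05 and 0.03. The standard error of the dim *Srebf2* probe was larger than its ratio at the first and the fifth hour and close to that of the ninth.

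Sterol transport and LXR genes gave 2 calls at the first hour and 1 at each later hour, all of them lower. *Abcg1* exports sterols to lipoproteins and is a target of LXR. Controls had 4159 to 5230.3 (median 4603), 4089.9 to 4992 (median 4585) and 4462 to 4872 (median 4626). Treated mice had 3564 to 4248 (median 4076), 3431 to 4324 (median 4019) and 3696 to 4238 (median 4057), with overlap at the first and the fifth hour and none at the ninth. The treated mouse had the lower value on all 24 arrays, and the log2 ratios were -0.21 ± 0.042, -0.19 ± 0.042 and -0.19 ± 0.042 (adjusted *p* = 7.75e-05, 0.000416 and 0.000426). The ninth hour call was lost without slide 1 (log2 ratio -0.17, adjusted *p* = 0.0759).

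*Abca1*, the other exporter and LXR target of the list, had 1256 to 1488 (median 1349), 1142 to 1714 (median 1372) and 1178 to 1611 (median 1321) in controls and 1251 to 1643 (median 1351), 1153 to 1546 (median 1352) and 1216 to 1700.2 (median 1371) in treated mice. The log2 ratios of 0.01 ± 0.063, -0.02 ± 0.063 and 0.06 ± 0.063 did not pass the test. The receptors *Nr1h2* and *Nr1h3* had ratios between -0.10 and 0.08, and *Stard4*, a carrier of sterols between membranes, had -0.10, -0.10 and -0.11. None of these 4 genes was called at any hour.

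Of the 9 genes of fatty acid synthesis and desaturation, 2, 2 and none were called, against 17.5, 18.1 and 14.0% of all probes. *Elovl5*, an elongase of polyunsaturated fatty acids, was higher at the first hour, with 3099.7 to 4144 (median 3433) in controls and 3448 to 4435 (median 4051) in treated mice (0.19 ± 0.053, adjusted *p* = 0.0067). The call was lost without slide 2 or slide 3 (adjusted *p* = 0.127 and 0.0987). *Elovl6*, the elongase of palmitate, fell by 8.61% at the first and 9.56% at the fifth hour, with 2572 to 2815 (median 2759) against 2113 to 2993 (median 2479) and 2321 to 2710.3 (median 2601) against 2077 to 2674 (median 2297) (-0.13 ± 0.047 and -0.14 ± 0.047, adjusted *p* = 0.0304 and 0.0155). The first hour call of *Elovl6* was lost in 7 of 16 alternatives, among them those without slide 1, 2 or 3 (adjusted *p* = 0.162, 0.162 and 0.064), and the fifth hour call in 3, among them those without slide 1 or slide 3 (adjusted *p* = 0.26 and 0.134). *Fads2*, the desaturase that starts the polyunsaturated chain, fell by 12.3% at the fifth hour (-0.19 ± 0.063, adjusted *p* = 0.0223), with 729.7 to 1069 (median 818) in controls and 589 to 837 (median 756) in treated mice. The call was lost without the array that stood apart (adjusted *p* = 0.0652) and without slide 1 or slide 3 (adjusted *p* = 0.156 and 0.129).

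The central enzymes of fat synthesis gave no call. *Fasn*, fatty acid synthase, had 20217 to 25115 (median 22874), 13859 to 24434 (median 23234) and 21522 to 23844 (median 22565) in controls and 18702 to 23758 (median 21623), 13458 to 22977 (median 21267) and 16040.1 to 23261 (median 21995) in treated mice, with ratios of -0.09 ± 0.075, -0.09 ± 0.075 and -0.08 ± 0.075. The desaturases *Scd1* and *Scd2*, which put the first double bond into fatty acids, had ratios of 0.07, 0.13 and 0.04 and of -0.03, 0.02 and -0.02. The intensity of *Scd1* was 1489.6 to 1999 (median 1712), 1545 to 1984 (median 1779) and 1687 to 2108 (median 1829) in controls and 1523 to 2097 (median 1769.7), 1702 to 2217 (median 1913) and 1732 to 2278 (median 1909.6) in treated mice. That of *Scd2* was 37762 to 43747 (median 42634), 36565 to 45129 (median 40430.1) and 39269.8 to 44302 (median 42134) in controls and 37745 to 43273 (median 41146), 37571 to 43778 (median 41988) and 39516 to 42926 (median 41550.5) in treated mice, and the groups overlapped at each hour for both genes. *Scd1* at the fifth hour (adjusted *p* = 0.114) passed the test in 2 alternatives, Aquantile normalization and the log2 ratios of the deposited table. *Acly*, which makes cytosolic acetyl-CoA, *Acaca*, which carboxylates it, and *Fads1*, the later desaturase of the polyunsaturated chain, had ratios between -0.09 and 0.09.

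Groups of treated and control mice without overlap were found for 5, 2 and 5 members at the 3 hours, when 1.59, 1.04 and 1.64% of all probes had such groups. These were *Fdps*, *Hmgcs1*, *Idi1*, *Msmo1* and *Sqle* at the first hour, *Idi1* and *Msmo1* at the fifth, and *Idi1*, *Msmo1*, *Mvk*, *Abcg1* and *Insig2* at the ninth.

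The same genes were compared between hours to see whether they followed the time of day. In control mice none of the 39 members differed between hours, when 0.00530% of all probes differed between the fifth and first hour, 0.0336% between the ninth and the fifth, and 0.537% between the ninth and first. At an unadjusted *p* under 0.05 were 5, 6 and 8 members in these comparisons (12.8, 15.4 and 20.5%), against 7.2, 6.34 and 10.2% of all probes, and a limma fit on the control channels alone gave no call either. Between the ninth and the first hour the log2 differences of *Hmgcs1*, *Idi1*, *Sqle* and *Msmo1* in control mice were 0.15 ± 0.058, -0.09 ± 0.064, 0.02 ± 0.049 and 0.01 ± 0.045. *Dhcr7* showed the largest difference, 0.33 ± 0.105 (adjusted *p* = 0.146), from a first hour group of 569.9 to 1211 (median 1049) to a ninth hour group of 1088 to 1328 (median 1255). *Insig2* had the smallest adjusted *p* (log2 -0.15 ± 0.047, adjusted *p* = 0.121), and it was called without the array that stood apart and with the processed signals of the scanner software.

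In corticosterone-treated mice 1 of the 39 members differed between hours. *Mylip*, an LXR target that encodes the ubiquitin ligase IDOL of lipoprotein receptors, was called between the fifth and first hour, when 0.546% of all probes were, and between the ninth and first hour, when 4.02% were. No member differed between the ninth and the fifth hour (0.661% of all probes), with 3 members (7.69%) and 10.3% of all probes at an unadjusted *p* under 0.05. At that threshold were 9 members (23.1%) and 9.53% of all probes between the fifth and first hour, and 8 members (20.5%) and 14.7% of all probes between the ninth and first. Treated mice had 1035 to 1175 (median 1104) at the first, 1288 to 1517 (median 1302) at the fifth and 1264 to 1540.2 (median 1357) at the ninth hour, so that the first hour group lay below both later groups without overlap. Control mice had 1143 to 1431 (median 1346), 1216 to 1692 (median 1453) and 1227 to 1513 (median 1373), with overlap between all hours. The rise in treated mice was 0.29 ± 0.059 by the fifth (adjusted *p* = 0.00321) and 0.33 ± 0.059 by the ninth hour (adjusted *p* = 6.16e-05), against 0.12 ± 0.059 and 0.04 ± 0.059 in control mice (adjusted *p* = 0.666 and 0.853).

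The ratio of treated to control mice for *Mylip* was accordingly -0.28 ± 0.050 at the first hour (adjusted *p* = 3.02e-05, lower on 8 of 8 arrays), -0.11 ± 0.050 at the fifth (adjusted *p* = 0.0913) and 0.01 ± 0.050 at the ninth (adjusted *p* = 0.929). The effect differed between the ninth and the first hour by 0.29 ± 0.071 (adjusted *p* = 0.016), a comparison in which 0.827% of all probes were called and no other member was. This call was lost without replicate 8 of the first hour (0.26, adjusted *p* = 0.0526), without slide 1, 2 or 3 (adjusted *p* = 0.428, 0.107 and 0.237), in the test on log ratios (adjusted *p* = 0.0706) and with the log2 ratios of the deposited table (adjusted *p* = 0.0558). The rise in treated mice by the fifth hour was lost without slide 2 or slide 3 (adjusted *p* = 0.0895 and 0.261), and that by the ninth hour passed the test in all 15 alternatives. Within slides, *Mylip* of treated mice was higher at the ninth than at the first hour by 0.36, 0.21 and 0.37 on slides 1, 2 and 3, against 0.08, 0.06 and 0.08 in control mice.

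Among the other members no change of the effect between hours passed the test. Over the 39 members, the spread between the highest and lowest ratio of the 3 hours had a median of 0.07 and was largest for *Mylip*, at 0.29. For *Idi1*, *Hmgcs1*, *Sqle*, *Msmo1*, *Fdps* and *Abcg1* the effects at the ninth and first hour were apart by -0.06 ± 0.078, 0.00 ± 0.070, 0.01 ± 0.060, -0.08 ± 0.054, 0.01 ± 0.054 and 0.02 ± 0.059. No member was called for a change of effect between the fifth and first hour (0.0389% of all probes) or between the ninth and the fifth (0.0830%). At an unadjusted *p* under 0.05, 1 member (2.56%) was found in each of these, *Mylip* and *Fdft1*, against 4.47 and 5.18% of all probes, and the test on log ratios gave no call either. Between the ninth and first hour 4 members (10.3%) and 7.16% of all probes were at that threshold.

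**Figure D3:**
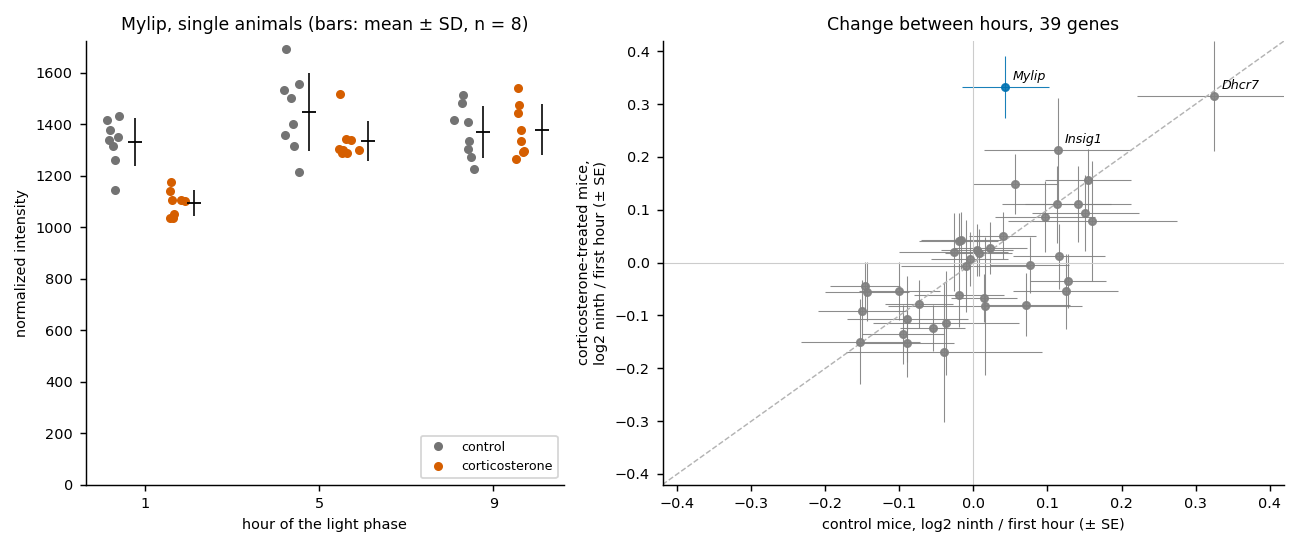
The left panel shows the intensity of *Mylip* (y axis, from 0) in each animal with bars of the mean ± SD, and the right panel the log2 difference of the ninth against the first hour in control (x axis) and corticosterone-treated mice (y axis) for 39 members, with bars of 1 SE and a dashed line of equal change. *Mylip* lies at 0.04 and 0.33, away from the line, whereas *Dhcr7* lies on it at 0.33 and 0.32.

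A second or further probe was present for 20 of the 39 members, 27 probes in all, of which 9 had a mean intensity under 100. The brightest probe was called in 20 pairings of a comparison with another probe of the same gene. The other probe had the same sign in 17 of these, was called as well in 5, and was called with the opposite sign in none. Both probes of *Hsd17b7* were lower at the first and the fifth hour, the second with ratios of -0.16 and -0.15 (adjusted *p* = 0.0229 and 0.0291). A further *Insig2* probe was higher by 0.17 and 0.21 at the fifth and ninth hour (adjusted *p* = 0.0165 and 0.00324), whereas the dimmest *Insig2* probe had -0.03, -0.02 and 0.04.

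Other genes gave less uniform values over their probes. The second *Msmo1* probe had ratios of -0.05 ± 0.058, -0.08 ± 0.058 and -0.10 ± 0.058 and was not called. The second *Pmvk* probe had 0.01 ± 0.055, 0.02 ± 0.055 and -0.02 ± 0.055. *Lss* was called through its second probe only, with ratios of -0.28 and -0.28 at the fifth and ninth hour (adjusted *p* = 7.16e-05 and 9.93e-05). For *Ggps1*, 1 of 5 probes was higher at all 3 hours, by 0.20, 0.19 and 0.23. The 2 probes of *Elovl5* were both higher at the first hour, and the second, with a mean intensity of 33.6 close to background, also at the later hours. With the mean of all probes of a gene in place of the brightest one, *Pmvk* at each hour, *Insig2* at the first hour, *Mvk* and *Fads2* at the fifth, and *Ebp* and *Fdft1* at the ninth hour did not pass the test. Under the same setting *Lss*, *Tm7sf2*, *Ebp* and *Elovl5* were called at the fifth hour, and *Ggps1*, *Lss* and *Elovl5* at the ninth, where they were not with the brightest probe.

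**Figure D4:**
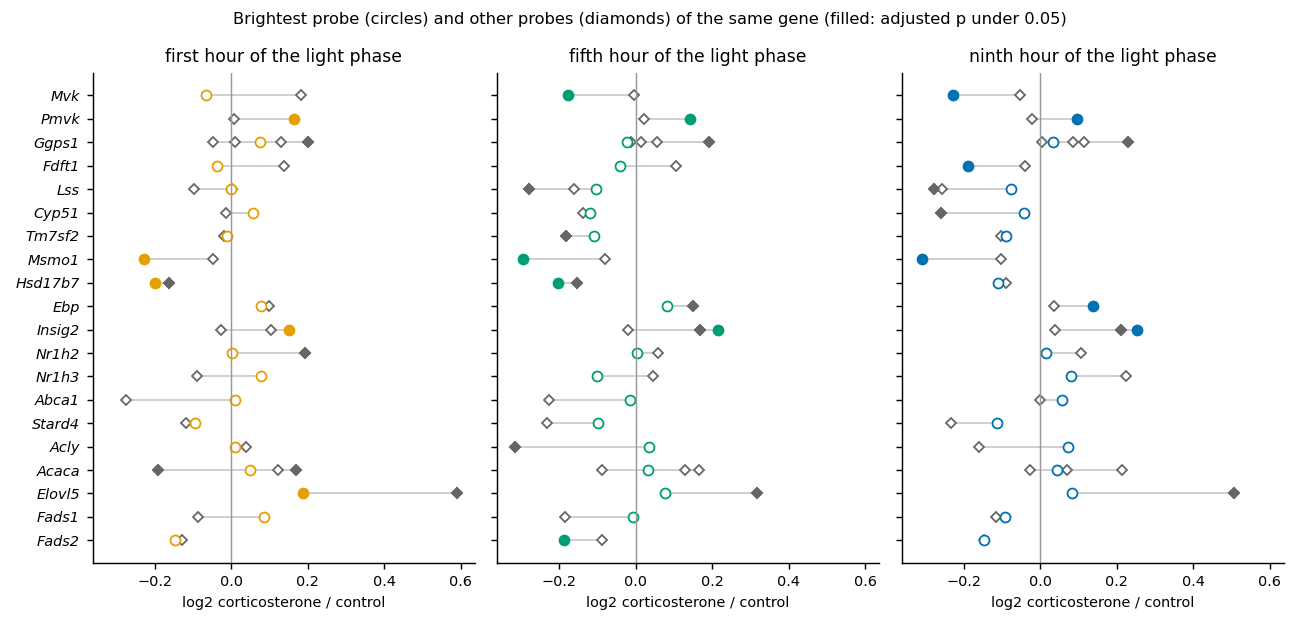
The log2 ratio of corticosterone-treated to control mice (x axis) is plotted at each hour for the brightest probe (circles) and the other probes (diamonds) of the 20 members with more than 1 probe, with filled marks for an adjusted p under 0.05. The *Hsd17b7* probes lie together, whereas the second *Pmvk* probe lies at 0.01, 0.02 and -0.02.

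Each slide held arrays of all 3 hours. Slide 1 held 2, 2 and 4 arrays in the order of the hours, whereas slides 2 and 3 each held 3, 3 and 2. The mean log2 ratio of a slide and hour was below 0 in all 9 combinations for *Hmgcs1*, *Idi1*, *Fdps*, *Sqle*, *Msmo1* and *Abcg1*, and above 0 in all 9 for *Pmvk* and *Insig2*. It ranged from -0.58 to -0.26 for *Idi1*, from -0.36 to -0.17 for *Msmo1* and from -0.39 to -0.08 for *Hmgcs1*. The lowest *Idi1* and *Hmgcs1* means both came from slide 3 at the fifth hour. With slide as a block, the calls at the first and the fifth hour numbered 12 and 12, and those at the ninth hour 10.

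**Figure D5:**
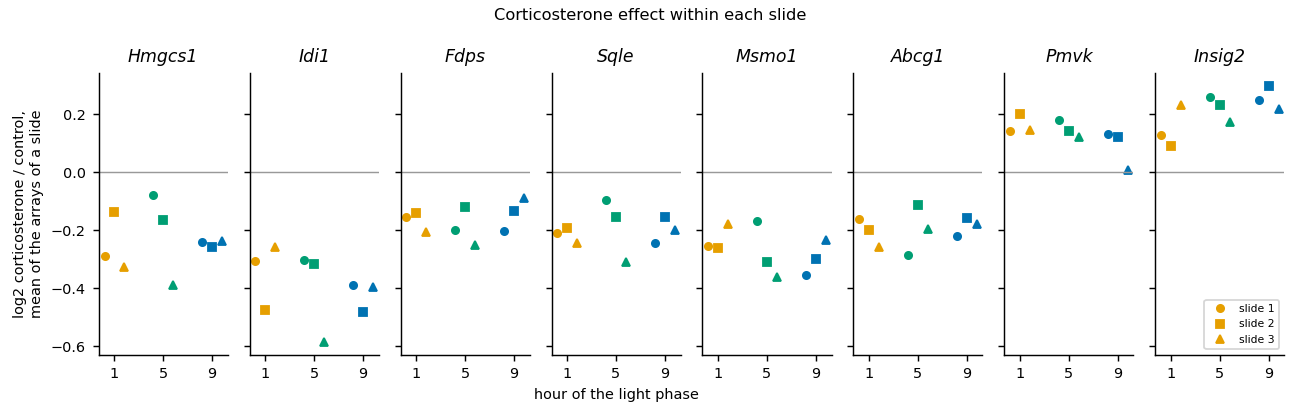
The mean log2 ratio of corticosterone-treated to control mice (y axis) over the arrays of a slide is plotted at each hour (x axis) for the 8 members with the same call at all 3 hours, with a mark for each slide. The 9 means of *Idi1* lie between -0.58 and -0.26, and the lowest mean of *Pmvk* is 0.01.

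A list of 46 further genes of these pathways was measured beside the members, and 10, 12 and 6 of them were called at the 3 hours (4, 4 and 2 higher). These are 10 of 46 (21.7%), 12 (26.1%) and 6 (13%), against 17.5, 18.1 and 14.0% of all probes. *Hsd17b12*, a reductase of fatty acid elongation, was lower at all 3 hours, with log2 ratios of -0.19, -0.13 and -0.18, as was *Hacd1*, a dehydratase of the same cycle, with -0.13, -0.20 and -0.15. *Mlxipl*, which encodes the carbohydrate-responsive factor ChREBP, was higher at all 3 hours, with 0.32, 0.31 and 0.29. These 3 genes were named after their values were seen, as the only ones of the 46 with a call at all 3 hours.

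Of these 46 genes, 3 were called for a change of the corticosterone effect between the ninth and first hour, when 0.827% of all probes were. *Hacd2*, another elongation dehydratase, had ratios of 0.54 ± 0.055, 0.35 ± 0.055 and 0.05 ± 0.055 at the 3 hours, and the effect changed by -0.48 ± 0.078 (adjusted *p* = 3.02e-05). *Mid1ip1*, which encodes an activator of acetyl-CoA carboxylase, had -0.31 ± 0.045, -0.17 ± 0.045 and -0.01 ± 0.045, a change of 0.30 ± 0.063 (adjusted *p* = 0.00176). *Acsl3*, a ligase that activates fatty acids, had 0.16 ± 0.067, 0.06 ± 0.067 and -0.22 ± 0.067, a change of -0.38 ± 0.095 (adjusted *p* = 0.0203). Treated mice also displayed a rise between the first and ninth hour of *Acat1*, an acetyl-CoA thiolase (0.17 ± 0.052, adjusted *p* = 0.0283), *Acsl5*, another fatty acid ligase (0.17 ± 0.053, adjusted *p* = 0.0429), and *Tmem97*, a sterol-regulated membrane protein (0.22 ± 0.062, adjusted *p* = 0.0245). Of all probes, 4.02% were called in treated mice between these hours. Control mice had differences of 0.14, 0.17 and 0.21 for *Acat1*, *Acsl5* and *Tmem97*, and the change of the effect between these hours did not pass the test.

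The markers of the cells that make up the hippocampus were read beside these genes. All 6 neuronal and all 6 markers each of astrocytes and oligodendrocytes were well above background on every array, and the defining choroid plexus marker *Ttr* had a mean intensity of 359.6 over the arrays. Of 6 oligodendrocyte markers, 4 were called at each hour, among them *Mobp* and *Mbp* as higher and *Mag* as lower. The log2 ratios of these genes at the ninth hour were 0.34, 0.17 and -0.30. A sum of intensities over markers follows its brightest probes, so the sums here and in the next paragraph do not measure the amount of a cell type. The summed intensity of the 6 markers had a lower median in treated mice at each hour, although the called markers went both ways. It was 61638 to 77254 (median 66998) in controls against 57182 to 76203 (median 59631) in treated mice at the first hour, 56274 to 79828 (median 69392) against 53812 to 69115 (median 56798) at the fifth, and 58943 to 80668 (median 69454) against 50308 to 70414 (median 57206) at the ninth, with overlap at each hour.

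Of 6 astrocyte markers, 2, 3 and 3 were called, with *Aldh1l1* higher, at log2 ratios of 0.57, 0.51 and 0.41, and *Aqp4* lower, at -0.76, -0.86 and -0.71. The summed astrocyte signal ranged from 28254 to 37333 in controls and from 29173 to 37116 in treated mice over the 3 hours. Its medians in control and treated mice were 30447 and 33441 at the first hour, 31489 and 32509 at the fifth, and 31046 and 30879 at the ninth. The groups overlapped at each hour. Of 5 microglial markers, 3, 2 and 1 were lower and none higher, and the medians of their sum were 14505 and 13486 in control and treated mice at the first hour, 15070.3 and 14180 at the fifth, and 15856 and 15025 at the ninth, with overlap at each hour. Of 5 endothelial and mural markers, 3, 2 and 2 were called. *Flt1* was lower at each hour, *Pecam1* was higher at the first and the fifth, and *Cldn5* was lower at the first and higher at the ninth. Their sum was 12708 to 15772 (median 13652) in controls and 10217 to 12611 (median 10971) in treated mice at the first hour, without overlap. The medians were 14450.4 and 12786 at the fifth hour and 13328 and 13025 at the ninth, with overlap at both. Of 6 neuronal markers none, 2 and 1 were called, all as higher, with sums from 118818 to 134670.0 in controls and from 118035 to 139628 in treated mice. The medians of this sum in control and treated mice were 128503 and 127542 at the first hour, 123833 and 131659 at the fifth, and 130321 and 131876 at the ninth. The groups overlapped at each hour. The part of these cell type differences in the differences of the members was not tested.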

How the data were processed

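Hippocampal RNA of 48 mice was hybridised on 24 two-color Agilent arrays of 62976 spots. The authors scanned the slides and extracted the spots with Feature Extraction 10.7.3.1. The intensities used here are the median spot and median local background signals per channel as deposited. A second deposited table holds log2 ratios of the authors, which matched normexp-corrected, loess-normalized ratios (lowest *r* over arrays 0.9997). It served as an alternative.

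Control spots (3671) and spots marked as outliers had weight 0 in loess and were left out of the fit. Signals were corrected with normexp (offset 50 for *p* values, 0 for intensities, log2 ratios and SE), normalized by loess within and by quantile between arrays, and copies of a probe were averaged. The separate channel model of limma 3.58.1 (R 4.3.3) was fitted to both channels, with each array pairing 2 animals through the intraspot correlation (0.279). Adjusted *p* values follow Benjamini and Hochberg over 56605 probes, with a threshold of 0.05, and all log2 ratios carry the SE of this model. Each channel of an array was a separate animal, and the number of arrays limits the precision. By the study's methods the animals of a group came from a few litters, so they included littermates. Litter was not in the model. The model was also run on simulated data, with planted differences larger than that of any member. That run therefore does not bear on calls of the sizes found here. Motifs were searched on both strands with Python 3.11.15.

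The members, roles and further gene lists were chosen with earlier results of these data known, and the values of 1 marker gene are not reported here. Values by animal are given for members called between hours, for the 10 largest differences of an hour and for regulators and paralogous enzymes. Alternatives covered background, normalization, dim probes, probe choice, slides, the test and the deposited ratios. Keeping outlier spots and leaving out 2 single arrays were chosen after seeing the data.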

Additional observations from a re-analysis of the deposited data

Results flagged for a closer look

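Values of 1 animal that lay far from the other 7 of its group were found in 26 of 351 groups of 8 (17 members), where the gap to the nearest value exceeded the 95% critical value of Dixon's ratio for 8 values. Chance alone gives this in about 1 of 20 groups. Several came from the same array.

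On the array of replicate 7 of the fifth hour, which stood apart over all probes, the corticosterone-treated animal had the lowest intensity of *Cyp51* (298.9), *Lss* (445), *Lbr* (462.7) and *Scap* (4902) and the highest of *Mylip* (1517) and *Insig2* (6439). The control animal of that array had the lowest *Cyp51* (376.9) and *Lbr* (522.2). On the array of replicate 8 of the first hour, the treated animal had the highest *Idi1* (3123), *Ggps1* (2804), *Ebp* (4440) and *Sc5d* (1702), and the log2 ratios of *Ebp* (0.5823), *Sc5d* (0.2437) and *Msmo1* (-0.04137) were the highest of that hour.

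Replicate 7 of the first hour had the lowest control values of *Dhcr7* (569.9) and *Nsdhl* (636.1). Replicate 3 of the fifth hour had the highest control *Dhcr7* (1600) and the lowest ratio of *Fads1* (-0.5103), and replicate 5 of that hour the lowest *Acaca* in the treated animal (3195) and as a ratio (-0.251). At the ninth hour, replicate 3 had the lowest *Fasn* (16040) and *Abcg1* (3696) in the treated animal and the lowest *Fasn* ratio (-0.4498), replicate 2 the lowest treated *Msmo1* (8397), and replicate 5 the highest control *Lss* (985.4).

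The corticosterone effect on *Mylip* differed between the ninth and first hour by 0.2887 on the log2 scale (adjusted *p* = 0.016 in limma's separate channel test), from a ratio of -0.28 to 0.01. This call was lost in 6 of 16 alternatives.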

How the results depend on the processing

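Of 1099 values of members called or named by the rule, 1040 stayed on their side of the threshold, 56 were no longer called and 3 became called. The 1040 include a setting with offset 50 for log2 ratios that kept the adjusted *p* values of the main fit, so its calls could not move. No value called in either fit had another sign, but 20 values of 12 uncalled results, whose log2 difference was at most 0.06 in size, did. The count of members that differed between treated and control mice ranged from 9 to 13 at the first, 8 to 15 at the fifth and 5 to 12 at the ninth hour, against 12, 12 and 11. Over the 39 members, 2, 14 and 4 values became called at these hours and 12, 13 and 23 were lost, summed over the alternatives. Without slide 2, *Sc5d*, *Nr1h3* and *Stard4* became called at the fifth hour, as did *Insig1* without slide 1, *Dhcr7* without slide 3, and *Scd1* with Aquantile and with the authors' ratios, while *Acaca* became called at the first hour with the processed signals. The 5 was found without slide 1, which carried 4 of the ninth hour's 8 arrays (*Hmgcs1*, *Mvk*, *Idi1*, *Msmo1* and *Insig2*). In control mice, *Insig2* was the 1 member called between the ninth and first hour with the processed signals and without the fifth hour's replicate 7, and the range over left-out arrays and slides was 0 to 1. In treated mice, the count between the fifth and first hour was 0 to 1 over slides left out, and that between the ninth and first hour was 2 with processed signals (*Mylip*, *Acaca*), 3 with probes of an intensity of 50 or more (*Pmvk*, *Dhcr7*, *Mylip*), 2 with the corticosterone channels alone (*Hmgcs1*, *Mylip*), and 1 to 2 with arrays or slides left out. The count for the change of the effect between the ninth and first hour was 0 with the test on log ratios and with the authors' ratios, and 0 to 1 with arrays or slides left out. The cause of these shifts was not tested, except that fewer arrays entered the fits without a slide. No paired analysis was possible because no replicate number in the labels links animals of different groups, other than the 2 animals on 1 array, which the model already pairs. Of the 39 members, *Insig1* and *Nr1h3* were the dimmest, with mean intensities of 150.3 and 254.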
